A study of Mus musculus with 12 samples.

Results

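DNA replication and S phase genes, a list of 43 genes that copy DNA or prepare the cell to copy it, were described in 2 mouse striatal cell lines, with and without heat shock. Each gene was represented by the probe set naming it alone with the highest mean level over all 12 arrays. In this way 42 of the 43 were measured, among 18193 genes in all. Chaf1a is not analysed here. The RNA of each sample had been hybridised to an Affymetrix MG430 2.0 array, a chip whose probe sets each report 1 transcript or a family of transcripts.

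There were 4 groups of 3 arrays. The first held STHdhQ111/Q111 cells heat-shocked at 42 °C for 6 h, and the second held the same line at its growth temperature of 33 °C. The third held STHdhQ7/Q7 cells after the same heat shock, and the fourth STHdhQ7/Q7 cells at 33 °C. Per the labels, the Q111 line came from the striatum of HdhQ111/Q111 knock-in mouse embryos and the Q7 line from that of wild-type HdhQ7/Q7 embryos. As background, Q111 names a lengthened CAG repeat in the huntingtin gene, here in both copies. All 4 groups were grown with fetal bovine serum and the antibiotic G418 and were kept to a limited number of passages. As background, such STHdh lines were immortalised with a temperature-sensitive form of the SV40 large T antigen, which binds the retinoblastoma proteins and is active at the growth temperature. An effect of heat stress and an effect of losing this antigen at 42 °C cannot be told apart in this design. Each genotype was a single line, so genotype and line cannot be told apart either. The labels do not state whether replicates were separate cultures, so p-values measure the spread between these arrays, which may be technical. An expression array does not read the repeat length, so the line labels were not checked against it.

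As background, a replication origin is first licensed in G1, when the origin recognition complex, Cdc6 and Cdt1 load the ring-shaped MCM2-7 helicase onto DNA. At the start of S phase Cdc45 and the GINS complex join the ring to form the active helicase. Primase and the polymerases alpha, delta and epsilon then copy the strands, helped by the sliding clamp Pcna and its loader RFC, while E2F proteins, held back by the retinoblastoma family, drive transcription of many of these genes.

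Values are log2 levels as the authors deposited them, and a probe set's level is compared only with itself on other arrays. Every member was above background on every array: the lowest member level was 7.42, and probe sets for bacterial genes reached at most 5.14. The 3' minus 5' level of the actin control probe sets, which rises with RNA degradation, was 1.25 ± 0.23 in heat-shocked Q111 cells and 0.72 ± 0.36 in Q111 cells at 33 °C (SD, n = 3). It was 1.48 ± 0.12 in heat-shocked Q7 cells and 0.54 ± 0.16 in Q7 cells at 33 °C (SD, n = 3). One array of Q111 cells at 33 °C, replicate 2, stood at 1.14, and the third heat-shocked Q111 array was the least like its group, with a mean correlation of 0.97. Of the markers that define striatal projection neurons 7 of 9 were measured, Drd2 stayed in background range on all arrays, and only Pde10a and Rgs9 were above it on all arrays. Of 5 progenitor markers Nes and Vim were above background on all arrays, whereas Sox2, Pax6 and Fabp7 were above it on some arrays only. The fibroblast genes Col1a1, Col1a2, Col3a1 and Dcn were above background on all arrays. The summed level of the 7 fibroblast markers, on the log2 scale, was between 13.54 and 13.90 in heat-shocked Q111 cells, against 14.67 to 14.74 in Q111 cells at 33 °C. It was between 13.25 and 13.33 in heat-shocked Q7 cells, against 13.84 to 13.98 in Q7 cells at 33 °C, and its part in the results was not tested. Lum and Thy1 of these markers were in background range on all arrays. The summed level of 6 astrocyte markers was between 9.46 and 10.05 in heat-shocked Q111 cells, against 7.79 to 8.76 in heat-shocked Q7 cells. At 33 °C it was between 9.51 and 10.98 in Q111 cells, against 8.56 to 8.73 in Q7 cells, with Gfap in background range on all arrays, and its part in the differences between lines was not tested. Of these 6 markers only Slc1a3 and Aldh1l1 were above background on all arrays. The summed level of 6 neuronal markers was between 9.53 and 9.78 in heat-shocked Q111 cells and 9.29 and 9.80 in Q111 cells at 33 °C. It was between 9.90 and 10.13 in heat-shocked Q7 cells and 9.69 and 10.20 in Q7 cells at 33 °C. Among the neuronal markers only Map2 was above background on all arrays. Of the oligodendrocyte markers all 4 measured were in background range, as were 4 of 6 microglial and 4 of 5 endothelial markers.

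Heat shock moved replication genes in both directions. Orc1, Orc6, Cdc6, Mcm10, Gins3, Rfc4, Rpa2 and Ccne2 rose in both lines, 8 genes in all. Mcm6, Pole, Rfc1, Lig1, Rrm1, Tk1 and Ccne1 fell in both lines, 7 genes in all. No member passed the test in opposite directions in the lines. The share of all genes called the same way in both lines was not determined, so these counts have no background beside them. In bulk RNA, fewer cells in a phase of the cell cycle and less RNA per cell cannot be told apart, which holds for every change given here.

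In Q111 cells 8 of 42 members were called higher after heat shock (19.0%), where the share of all genes called higher was 20.0%. Of the members 14 (33.3%) were called lower, against 28.2% of all genes. In Q7 cells 11 members (26.2%) were called higher, against 12.3% of all genes, and 7 members (16.7%) were called lower, against 18.1% of all genes. A call is an adjusted p under 0.05 in limma's test over all genes. The median log2 difference of the members was -0.06 in Q111 cells and 0.14 in Q7 cells. Over all genes this median was -0.02 in Q111 cells and 0.00 in Q7 cells. Among the 7593 genes in the members' own range of levels the medians were lower, -0.28 in Q111 cells and -0.09 in Q7 cells, and there the shares called higher were 18.2% in Q111 cells and 19.4% in Q7 cells. The shares called lower in that range were 38.3% in Q111 cells and 24.4% in Q7 cells.

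How the arrays are scaled changes how many members count as higher or lower. A further quantile normalization gave 9 higher and 13 lower in Q111 cells, and 11 higher and 10 lower in Q7 cells. On the deposited scale the median change over all genes was -0.02 in Q111 cells and 0.00 in Q7 cells. Centring each array on its median gene added 0.73 to every log2 difference in Q111 cells and 0.35 in Q7 cells, which moves the typical gene above 0. On that scale 25 members were called higher and 4 lower in Q111 cells, and 20 higher and 6 lower in Q7 cells. Of all calls 82.5% were then higher in Q111 cells, against 41.5% on the deposited scale, and 70.1% in Q7 cells, against 40.4%. Centred on genes in the members' range of levels, the counts were 14 higher and 13 lower in Q111 cells, and 12 higher and 8 lower in Q7 cells, and 60% of all calls in Q111 cells were higher. Centred on the median gene, Pole, Rfc1 and Lig1 were still called lower in both lines, E2f1 in Q111 cells, and Rrm1, Tk1 and Ccne1 in Q7 cells. When the actin measure of RNA quality entered the fit as a covariate, 6 members were called higher and 8 lower in Q111 cells, where Orc6, Rpa2, Mcm6, Gins1, Pold2, Rfc2, Rfc5 and Chaf1b lost their calls, whereas in Q7 cells Orc1 alone was called higher and Ccne1 alone lower. The actin values of the heat-shocked and the 33 °C arrays did not overlap in Q7 cells, so RNA quality and heat shock cannot be told apart there. With the Q111 arrays alone in the fit, 6 members were called higher and 11 lower, as Orc6, Rpa2, Mcm2, Pold2 and Ccne1 lost their calls. Without the third heat-shocked Q111 array, which shares the estimate of spread, 11 members in place of 7 were called lower in Q7 cells.

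**Figure D1:**
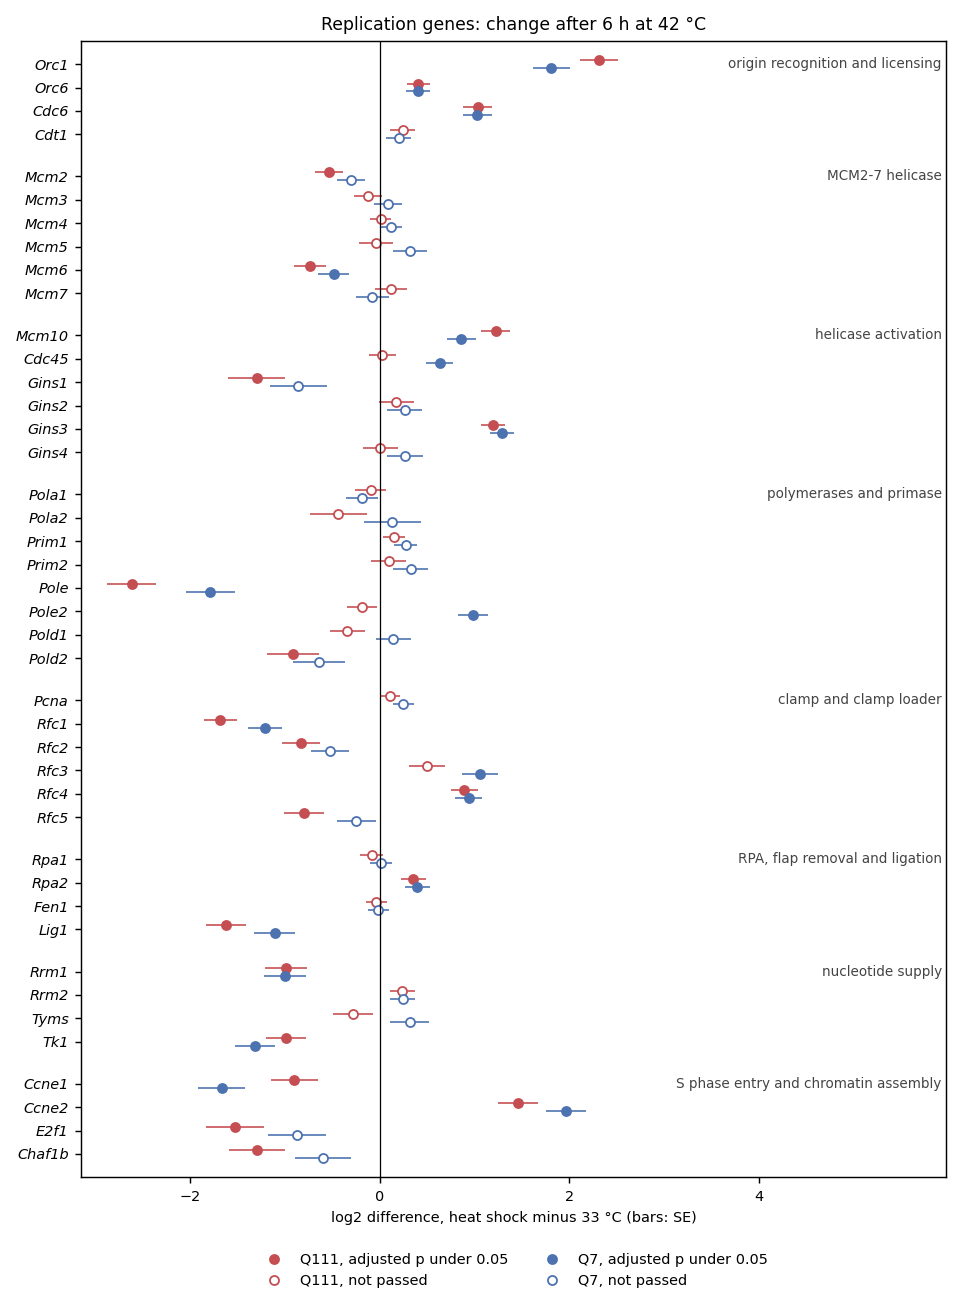
Log2 difference of each of the 42 members between heat-shocked cells and cells at 33 °C, by role, for Q111 cells (red) and Q7 cells (blue). Points are fitted differences over 3 arrays a group, bars are standard errors, and filled points passed an adjusted p of 0.05. Orc1, Ccne2, Gins3 and Mcm10 lie to the right in both lines and Pole, Rfc1 and Lig1 to the left, while Pole2 is near 0 in Q111 cells and at 0.98 in Q7 cells.

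Promoter sequences of genes that moved together in both lines are shown here, a pair that rose and a pair that fell, to set their letters side by side. They are the 250 bases before the transcription start in RefSeq's table, build GRCm38.p6, written 5′ to 3′ on the gene's strand. Capitals mark matches, on either strand, to an E2F-type motif (TTCCCGC or TTGGCGC or TTCGCGC or TTGCCGC) or to the CCAAT box (CCAAT), which binds NF-Y. Orc1 rose and its window is chr4:108579204-108579453 on the plus strand. Gins3 rose too, and its window is chr8:95633309-95633558 on the plus strand. Rfc1 fell and its window is chr5:65335640-65335889 on the minus strand. Ccne1 fell too, and its window is chr7:38107491-38107740 on the minus strand. Those of Gins3 and Ccne1 end at the edge of the annotated gene, whereas those of Orc1 and Rfc1 lie inside the span that RefSeq gives the gene.
Orc1: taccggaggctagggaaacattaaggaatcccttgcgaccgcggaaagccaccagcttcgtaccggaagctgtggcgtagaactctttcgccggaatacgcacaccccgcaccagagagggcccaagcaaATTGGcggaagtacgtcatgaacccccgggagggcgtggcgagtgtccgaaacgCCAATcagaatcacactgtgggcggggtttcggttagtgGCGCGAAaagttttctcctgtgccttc
Gins3: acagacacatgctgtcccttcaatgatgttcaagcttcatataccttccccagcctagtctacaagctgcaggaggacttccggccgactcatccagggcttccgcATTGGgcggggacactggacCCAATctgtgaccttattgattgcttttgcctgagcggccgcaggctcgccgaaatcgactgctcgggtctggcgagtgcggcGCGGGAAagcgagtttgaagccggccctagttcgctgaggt
Rfc1: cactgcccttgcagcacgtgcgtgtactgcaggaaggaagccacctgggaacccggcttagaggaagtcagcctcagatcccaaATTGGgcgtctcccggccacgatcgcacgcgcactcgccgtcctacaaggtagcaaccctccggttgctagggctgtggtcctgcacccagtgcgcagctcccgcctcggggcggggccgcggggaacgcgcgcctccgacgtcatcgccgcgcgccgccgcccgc
Ccne1: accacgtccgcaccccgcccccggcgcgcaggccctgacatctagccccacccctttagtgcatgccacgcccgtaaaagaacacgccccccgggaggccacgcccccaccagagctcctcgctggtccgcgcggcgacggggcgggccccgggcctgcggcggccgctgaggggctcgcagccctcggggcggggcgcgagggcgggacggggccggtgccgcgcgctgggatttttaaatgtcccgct

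The Orc1 window held an E2F-type match beginning 27 bases before the start and CCAAT boxes beginning 120 and 66 bases before it. In Gins3 the E2F-type match lay 41 bases before the start, with CCAAT boxes at 144 and 124 bases. The Rfc1 window had a CCAAT box 166 bases before the start and no E2F-type match, and these letters were not found in the Ccne1 window. Over the list, 34 members had 39 promoters in the table, and 38.5% of them (15) held an E2F-type match, against 7.89% of all 32851 promoters. Among members that rose in both lines 4 of 7 promoters held one, and among those that fell 2 of 8, those of Mcm6 and Rrm1. The 8 promoters came from 6 genes, as Lig1 had 3 starts in the table, none with a match. Pole and Ccne2 had no promoter in the table. Whether the shares differ between members that rose and fell was not tested. A CCAAT box was in 53.8% of the members' promoters and in 33.8% of all promoters. The core of a heat shock element (GAANNTTC), a search added after the others, was found in 7.69% of the members' promoters and in 6.69% of all. No promoter of the members that rose in both lines held it, nor did one of those that fell. A match describes letters and is not a measured binding site, and no match says only that these letters are not in this window.

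The 4 origin recognition and licensing genes of the list were called higher or did not pass the test. Of the complex's subunits outside the list, Orc4 rose in Q111 cells (1.21, adjusted p = 0.000354) and Q7 cells (1.21, adjusted p = 0.000541) by limma. Orc5 fell in Q111 cells (-0.91, adjusted p = 0.0175) and was not called in Q7 cells. Orc2 and Orc3 were not called after heat shock in either line. Orc1, the largest subunit of the origin recognition complex, had levels of 10.95, 11.16 and 10.60 on heat-shocked Q111 arrays, against 8.23, 8.61 and 8.94 on Q111 arrays at 33 °C. On heat-shocked Q7 arrays it had 10.52, 10.48 and 10.65, against 8.57, 8.84 and 8.82 at 33 °C. All 6 heat-shocked arrays were above all 6 arrays at 33 °C. The log2 difference was 2.31 (SE 0.20, adjusted p = 1.12e-05) in Q111 cells by limma, a 4.97-fold rise. It was 1.81 (SE 0.20, adjusted p = 6.55e-05) in Q7 cells, or 3.5-fold. These calls held under all alternatives run, including the covariate for RNA quality. Cdc6, which loads the helicase together with Cdt1, had 11.11, 11.05 and 11.01 in heat-shocked Q111 cells, against 9.99, 10.15 and 9.94 at 33 °C. In heat-shocked Q7 cells it had 11.13, 11.11 and 11.16, against 10.43, 10.05 and 9.82 at 33 °C. The heat-shocked Cdc6 arrays were tightly grouped, whereas the Q7 arrays at 33 °C were spread more widely. Its log2 differences were 1.04 (SE 0.15, adjusted p = 0.000304) in Q111 cells and 1.03 (SE 0.15, adjusted p = 0.00049) in Q7 cells. Orc6, another subunit of the complex, rose as well, by 0.41 (SE 0.12, adjusted p = 0.0192) in Q111 cells and by 0.40 (SE 0.12, adjusted p = 0.0297) in Q7 cells. The Q111 call of Orc6 ended without heat-shocked Q111 replicate 2 or 33 °C Q111 replicate 1 or 2 (adjusted p between 0.0516 and 0.0592). Its Q7 call ended without heat-shocked Q7 replicate 1, 2 or 3 or 33 °C Q7 replicate 1 or 2 (adjusted p between 0.0641 and 0.1). Cdt1, the licensing factor that geminin holds back, had log2 differences of 0.24 (SE 0.13, adjusted p = 0.151) in Q111 cells and 0.20 (SE 0.13, adjusted p = 0.289) in Q7 cells, which did not pass.

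Of the 6 genes of the MCM2-7 ring, the helicase core, 2 were called lower in Q111 cells and 1 in Q7 cells by limma. Of all genes 28.2% were called lower in Q111 cells and 18.1% in Q7 cells. On the deposited scale none of the 6 ring genes was called higher in either line, also at an unadjusted p under 0.05 (0 genes). Of all genes 20.0% were called higher in Q111 cells and 12.3% in Q7 cells. Mcm6 had 11.38, 11.04 and 11.29 in heat-shocked Q111 cells, against 11.71, 12.06 and 12.15 at 33 °C. In heat-shocked Q7 cells it had 11.58, 11.65 and 11.57, against 11.83, 12.32 and 12.12 at 33 °C. In each line the heat-shocked arrays were below the 33 °C arrays. The log2 difference was -0.74 (SE 0.17, adjusted p = 0.00426) in Q111 cells and -0.49 (SE 0.17, adjusted p = 0.0476) in Q7 cells. The Q7 call ended without heat-shocked Q111 replicate 1, 33 °C Q111 replicate 2 or 3, heat-shocked Q7 replicate 1, 2 or 3 or 33 °C Q7 replicate 2 or 3 (adjusted p between 0.0531 and 0.18), and the Q111 call ended when all probe sets of Mcm6 were averaged. Mcm2 had 10.95, 10.80 and 10.66 in heat-shocked Q111 cells, against 11.11, 11.63 and 11.28 at 33 °C, a difference of -0.54 (SE 0.15, adjusted p = 0.0131). Centred on the median gene, the Mcm2 value turned to 0.19. In Q7 cells its difference was -0.30 (SE 0.15, adjusted p = 0.162), which did not pass. Mcm3, Mcm4, Mcm5 and Mcm7 had log2 differences between -0.12 and 0.12 in Q111 cells and between -0.08 and 0.32 in Q7 cells, none of which passed. With arrays centred on the median gene, Mcm3 (0.60), Mcm4 (0.74), Mcm5 (0.69) and Mcm7 (0.84) were called higher in Q111 cells.

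Among the genes that turn the loaded ring into a working helicase, Mcm10 and Gins3 rose in both lines. Mcm10, which helps to activate the helicase, had 10.28, 10.52 and 10.19 in heat-shocked Q111 cells, against 8.91, 9.24 and 9.17 at 33 °C. In heat-shocked Q7 cells Mcm10 had 10.12, 10.09 and 10.19, against 9.49, 9.29 and 9.04 at 33 °C. The groups did not overlap in either line. Its log2 differences were 1.22 (SE 0.16, adjusted p = 0.000111) in Q111 cells and 0.86 (SE 0.16, adjusted p = 0.00154) in Q7 cells. Gins3, a subunit of the GINS complex, had 10.62, 10.67 and 10.61 in heat-shocked Q111 cells, against 9.50, 9.55 and 9.27 at 33 °C. In heat-shocked Q7 cells Gins3 had 10.73, 10.67 and 10.72, against 9.59, 9.33 and 9.32 at 33 °C. Its 6 heat-shocked arrays lay close together, above all 6 arrays at 33 °C. The differences were 1.19 (SE 0.13, adjusted p = 3.85e-05) in Q111 cells and 1.29 (SE 0.13, adjusted p = 3.96e-05) in Q7 cells.

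On the deposited scale no other GINS subunit was called higher by limma in either line, also at an unadjusted p under 0.05 (0 genes). Gins1 had 9.81, 10.27 and 8.83 in heat-shocked Q111 cells, against 10.80, 10.72 and 11.29 at 33 °C, and fell with a log2 difference of -1.30 (SE 0.30, adjusted p = 0.00458). The third heat-shocked array was the lowest of the 12. In heat-shocked Q7 cells Gins1 had 10.18, 9.89 and 10.04, against 10.76, 10.87 and 11.05 at 33 °C, a difference of -0.86 (SE 0.30, adjusted p = 0.0506) that missed the threshold although the groups did not overlap. Gins2 and Gins4 had differences of 0.17 and 0.00 in Q111 cells, and of 0.26 and 0.27 in Q7 cells, none of which passed. With arrays centred on the median gene, Gins2 (0.90) and Gins4 (0.73) were called higher in Q111 cells. Cdc45, the third component of the active helicase, had 10.47, 10.61 and 10.24 in heat-shocked Q111 cells, against 10.27, 10.46 and 10.51 at 33 °C. In heat-shocked Q7 cells Cdc45 had 11.32, 11.26 and 11.25, against 10.46, 10.80 and 10.66 at 33 °C. The heat-shocked Q7 arrays stood above the other 9, which overlapped. Its log2 difference was 0.03 (SE 0.14, adjusted p = 0.896) in Q111 cells and 0.63 (SE 0.14, adjusted p = 0.00602) in Q7 cells, where it rose, and the difference between these effects was -0.61 (SE 0.20, adjusted p = 0.109), which did not pass on the probe set used.

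**Figure D2:**
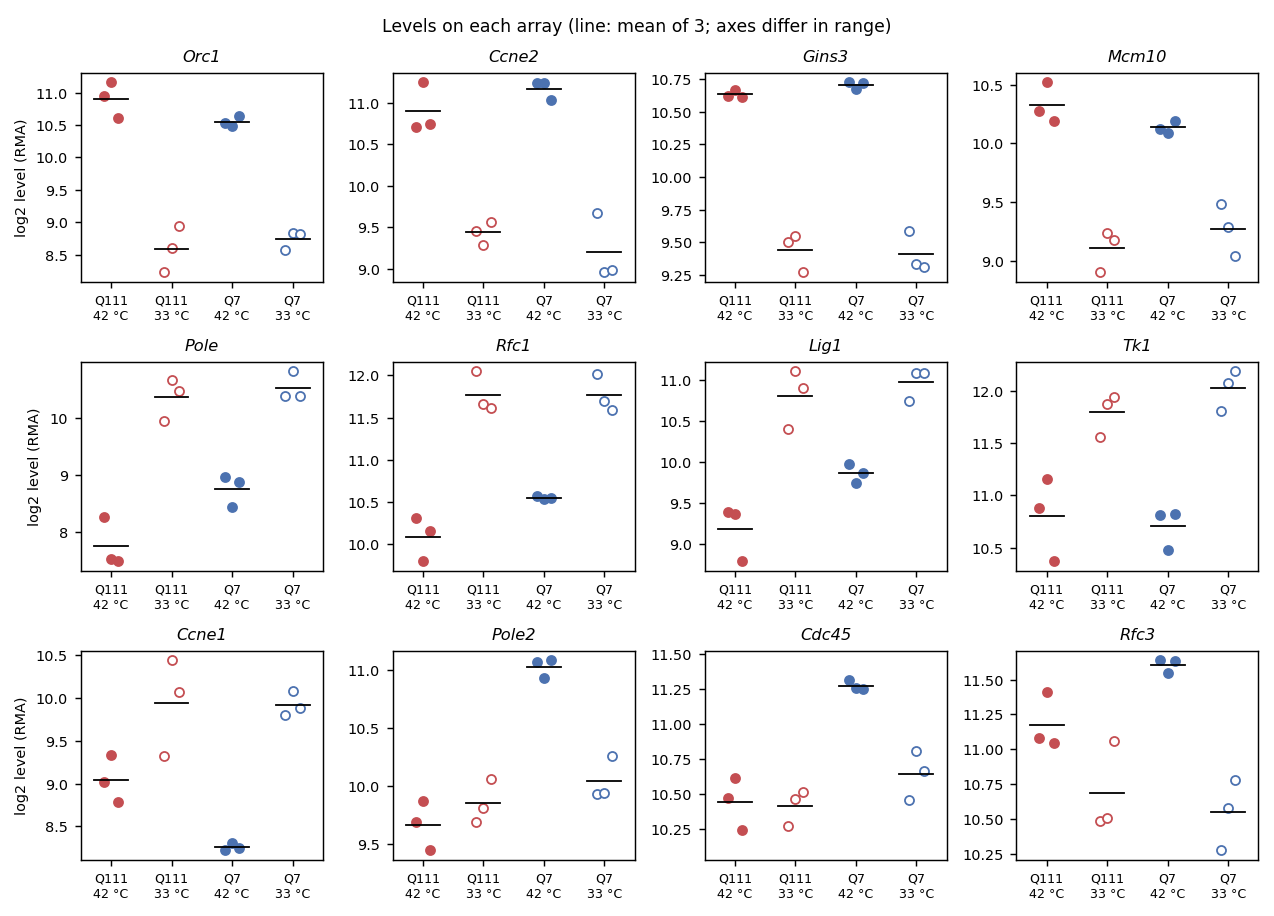
Log2 level (RMA) of 12 members on each array, with the vertical axis of each panel set to its own range. Points are arrays, filled after heat shock and open at 33 °C, red for Q111 and blue for Q7 cells, and lines are means of 3. Orc1, Ccne2, Gins3 and Mcm10 are higher on every heat-shocked array, Pole, Rfc1, Lig1 and Tk1 lower, and Pole2 and Cdc45 are highest on the heat-shocked Q7 arrays.

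Pole, the catalytic subunit of polymerase epsilon, which copies the leading strand, had the largest fall of the list in both lines by the probe sets used. Its levels were 8.26, 7.52 and 7.48 on heat-shocked Q111 arrays, against 9.95, 10.68 and 10.49 at 33 °C. On heat-shocked Q7 arrays they were 8.96, 8.43 and 8.88, against 10.40, 10.83 and 10.40 at 33 °C. The heat-shocked arrays were below the 33 °C arrays in both lines, and the heat-shocked Q111 arrays were below the heat-shocked Q7 arrays. The log2 difference was -2.62 (SE 0.26, adjusted p = 2.43e-05) in Q111 cells, 6.15-fold lower, and -1.79 (SE 0.26, adjusted p = 0.00042) in Q7 cells, 3.45-fold lower. The difference between these effects, -0.83 (SE 0.37, adjusted p = 0.222), did not pass.

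Its partner Pole2, the second subunit of polymerase epsilon, was not called lower. Pole2 had 9.68, 9.87 and 9.44 on heat-shocked Q111 arrays, against 9.69, 9.81 and 10.06 at 33 °C. On heat-shocked Q7 arrays it had 11.06, 10.93 and 11.08, against 9.93, 9.93 and 10.26 at 33 °C. The heat-shocked Q7 arrays were the highest of the 12, and the other 3 groups lay close together. In Q111 cells the log2 difference of Pole2 was -0.18 (SE 0.16, adjusted p = 0.359), and in Q7 cells it rose with a difference of 0.98 (SE 0.16, adjusted p = 0.000807). On the probe sets used, Pole2 was the single member whose heat shock effect differed between the lines in limma's test, with a difference of effects of -1.17 (SE 0.23, adjusted p = 0.0152). That call ended without heat-shocked Q7 replicate 3 (adjusted p = 0.0509), when arrays were centred on the median gene (0.0700), with all probe sets of the gene averaged (0.0552) and with the actin covariate (0.0518). With all probe sets averaged, Cdc45 was called in its place, at -0.81 (SE 0.20, adjusted p = 0.0408).

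Of the remaining polymerase and primase genes Pold2 alone passed after heat shock, in Q111 cells. Pold2, an accessory subunit of polymerase delta, had 10.24, 10.29 and 9.25 in heat-shocked Q111 cells, against 10.47, 11.04 and 11.03 at 33 °C, and fell with a log2 difference of -0.92 (SE 0.28, adjusted p = 0.0174). The third heat-shocked array was the lowest of the 12, and the call ended without 33 °C Q111 replicate 2 or 3 (adjusted p between 0.0587 and 0.0626). In Q7 cells the Pold2 difference was -0.64 (SE 0.28, adjusted p = 0.104), which did not pass. Pold1, its catalytic subunit, had differences of -0.34 (SE 0.18, adjusted p = 0.144) in Q111 cells and 0.14 (SE 0.18, adjusted p = 0.617) in Q7 cells. Pola1 and Pola2, of the polymerase alpha that starts each strand with primase, had -0.10 and -0.44 in Q111 cells and -0.19 and 0.13 in Q7 cells. The primase subunits Prim1 and Prim2 had 0.15 and 0.10 in Q111 cells and 0.27 and 0.32 in Q7 cells. None of these 5 genes passed in either line.

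The clamp loader RFC split by subunit. Rfc1, its largest subunit, had 10.31, 9.80 and 10.15 in heat-shocked Q111 cells, against 12.05, 11.65 and 11.61 at 33 °C. In heat-shocked Q7 cells Rfc1 had 10.57, 10.53 and 10.55, against 12.01, 11.69 and 11.59 at 33 °C. All 6 heat-shocked arrays were below all 6 arrays at 33 °C. Rfc1 fell with log2 differences of -1.68 (SE 0.18, adjusted p = 3.56e-05) in Q111 cells and -1.21 (SE 0.18, adjusted p = 0.000443) in Q7 cells. Rfc4, a small subunit, moved the other way. It had 12.42, 12.62 and 12.48 in heat-shocked Q111 cells, against 11.36, 11.70 and 11.79 at 33 °C. In heat-shocked Q7 cells Rfc4 had 12.66, 12.76 and 12.83, against 11.66, 11.84 and 11.93 at 33 °C. Again the groups did not overlap, and the differences were 0.89 (SE 0.15, adjusted p = 0.000536) in Q111 cells and 0.94 (SE 0.15, adjusted p = 0.000615) in Q7 cells.

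Rfc3 had 11.08, 11.41 and 11.04 in heat-shocked Q111 cells, against 10.48, 10.50 and 11.06 at 33 °C, a log2 difference of 0.50 (SE 0.19, adjusted p = 0.0506) that missed the threshold and overlapped on 1 array. In heat-shocked Q7 cells Rfc3 had 11.64, 11.55 and 11.63, against 10.27, 10.58 and 10.78 at 33 °C, a rise of 1.06 (SE 0.19, adjusted p = 0.00155). Rfc2 fell in Q111 cells, with a log2 difference of -0.83 (SE 0.20, adjusted p = 0.00571), and had -0.52 (SE 0.20, adjusted p = 0.0708) in Q7 cells. Rfc5 fell in Q111 cells as well, by -0.80 (SE 0.21, adjusted p = 0.00904), and had -0.25 (SE 0.21, adjusted p = 0.426) in Q7 cells. For neither gene did the difference between the lines' effects pass, with adjusted p = 0.576 for Rfc2 and 0.316 for Rfc5. Pcna, the clamp itself, had 13.39, 13.50 and 13.44 in heat-shocked Q111 cells, against 13.33, 13.28 and 13.40 at 33 °C, a difference of 0.11 (SE 0.11, adjusted p = 0.438). In Q7 cells the Pcna difference was 0.25 (SE 0.11, adjusted p = 0.111), and although its 3 heat-shocked arrays were above the 3 Q7 arrays at 33 °C this did not pass.

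Of the genes that finish the lagging strand, Lig1 changed most. Lig1, the ligase that joins Okazaki fragments, had 9.40, 9.37 and 8.80 in heat-shocked Q111 cells, against 10.41, 11.11 and 10.91 at 33 °C. In heat-shocked Q7 cells Lig1 had 9.98, 9.75 and 9.87, against 10.74, 11.09 and 11.09 at 33 °C. In both lines every heat-shocked array was below every 33 °C array. Lig1 fell with log2 differences of -1.62 (SE 0.21, adjusted p = 0.000144) in Q111 cells and -1.11 (SE 0.21, adjusted p = 0.00242) in Q7 cells. Fen1, the nuclease that trims the flap before ligation, had 13.07, 13.12 and 13.11 in heat-shocked Q111 cells, against 13.07, 13.23 and 13.11 at 33 °C. Its differences were -0.04 (SE 0.11, adjusted p = 0.807) in Q111 cells and -0.02 (SE 0.11, adjusted p = 0.928) in Q7 cells, which did not pass. Of the RPA complex that coats single-stranded DNA, Rpa2 rose a little, with 0.35 (SE 0.13, adjusted p = 0.0465) in Q111 cells and 0.40 (SE 0.13, adjusted p = 0.0425) in Q7 cells. Of 25 alternatives 17 ended the Q111 call and 14 the Q7 call. The Q111 call of Rpa2 ended without heat-shocked Q111 replicate 1 or 2, 33 °C Q111 replicate 1 or 2, heat-shocked Q7 replicate 1, 2 or 3 or 33 °C Q7 replicate 2 or 3 (adjusted p between 0.057 and 0.149). Its Q7 call ended without heat-shocked Q111 replicate 1, 33 °C Q111 replicate 1, 2 or 3, heat-shocked Q7 replicate 1, 2 or 3 or 33 °C Q7 replicate 1, 2 or 3 (adjusted p between 0.0501 and 0.132). Rpa1, the large subunit, had -0.09 (SE 0.12, adjusted p = 0.574) in Q111 cells and 0.01 (SE 0.12, adjusted p = 0.947) in Q7 cells.

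Nucleotide supply genes fell or did not pass. Tk1, thymidine kinase, had 10.88, 11.16 and 10.37 in heat-shocked Q111 cells, against 11.56, 11.88 and 11.94 at 33 °C. In heat-shocked Q7 cells Tk1 had 10.81, 10.48 and 10.82, against 11.81, 12.08 and 12.19 at 33 °C. The groups did not overlap in either line. Tk1 fell with log2 differences of -0.99 (SE 0.21, adjusted p = 0.00262) in Q111 cells and -1.32 (SE 0.21, adjusted p = 0.000689) in Q7 cells. Rrm1, the large subunit of ribonucleotide reductase, had 11.00, 11.07 and 10.51 in heat-shocked Q111 cells, against 11.42, 12.11 and 12.03 at 33 °C. In heat-shocked Q7 cells Rrm1 had 10.95, 10.72 and 10.88, against 11.54, 12.04 and 11.96 at 33 °C. Rrm1 fell with log2 differences of -0.99 (SE 0.22, adjusted p = 0.00375) in Q111 cells and -0.998 (SE 0.22, adjusted p = 0.00526) in Q7 cells, and the groups did not overlap in either line. Rrm2, the small subunit, had differences of 0.24 (SE 0.13, adjusted p = 0.158) in Q111 cells and 0.24 (SE 0.13, adjusted p = 0.201) in Q7 cells, which did not pass. Tyms, thymidylate synthase, had -0.28 (SE 0.21, adjusted p = 0.283) in Q111 cells and 0.32 (SE 0.21, adjusted p = 0.298) in Q7 cells. Its brighter probe set, which also names a pseudogene and was left out, gave -0.31 in Q111 cells (adjusted p = 0.118) and -0.34 in Q7 cells (adjusted p = 0.134).

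The E-type cyclins, partners of Cdk2 at S phase entry, went in opposite directions. Ccne2 had 10.71, 11.25 and 10.75 in heat-shocked Q111 cells, against 9.46, 9.29 and 9.57 at 33 °C. In heat-shocked Q7 cells Ccne2 had 11.24, 11.24 and 11.04, against 9.67, 8.96 and 8.99 at 33 °C. Every heat-shocked array was above every array at 33 °C. Ccne2 rose with log2 differences of 1.46 (SE 0.21, adjusted p = 0.000253) in Q111 cells (2.76-fold) and 1.97 (SE 0.21, adjusted p = 6.08e-05) in Q7 cells (3.91-fold). Ccne1 had 9.01, 9.34 and 8.79 in heat-shocked Q111 cells, against 9.33, 10.44 and 10.07 at 33 °C. In heat-shocked Q7 cells Ccne1 had 8.22, 8.30 and 8.25, against 9.81, 10.09 and 9.89 at 33 °C. The Q7 groups were far apart, while in Q111 cells the first 33 °C array lay just under the highest heat-shocked array. Ccne1 fell with log2 differences of -0.90 (SE 0.25, adjusted p = 0.0113) in Q111 cells and -1.67 (SE 0.25, adjusted p = 0.000464) in Q7 cells. The Q111 call ended with the Q7 arrays left out of the fit, with a further quantile normalization, with arrays centred on the median gene and without both arrays that stood apart (highest adjusted p = 0.501).

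E2f1, an activator of S phase genes, had 8.74, 8.35 and 7.45 in heat-shocked Q111 cells, against 9.58, 10.05 and 9.49 at 33 °C. It fell there with a log2 difference of -1.53 (SE 0.31, adjusted p = 0.00203), with the third heat-shocked array lowest of the 12. In heat-shocked Q7 cells E2f1 had 8.97, 8.29 and 8.67, against 9.53, 9.75 and 9.26 at 33 °C, a difference of -0.87 (SE 0.31, adjusted p = 0.0512) just short of the threshold. Chaf1b, a subunit of the complex that places histones on new DNA, had 9.42, 9.67 and 8.91 in heat-shocked Q111 cells, against 10.06, 10.88 and 10.95 at 33 °C. It fell by -1.30 (SE 0.30, adjusted p = 0.0043), and in Q7 cells its difference was -0.60 (SE 0.30, adjusted p = 0.154), which did not pass. Between the lines the heat shock effect did not differ by the test, with adjusted p = 0.428 for E2f1 and 0.379 for Chaf1b.

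At 33 °C few members differed between the lines by the test. A single member, Prim2, was called higher in Q111 cells (2.38%), against 5.11% of all genes, and no member was called lower by limma at an adjusted p under 0.05, against 5.68% of all genes. At an unadjusted p under 0.05 there were 2 higher and 1 lower. The median log2 difference was -0.04 over the members and -0.00 over all genes. Prim2, the large primase subunit, had 10.55, 10.53 and 10.93 in Q111 cells at 33 °C, against 9.84, 9.97 and 10.17 in Q7 cells at 33 °C. All 3 Q111 arrays were above all 3 Q7 arrays, and the difference was 0.67 (SE 0.19, adjusted p = 0.0389). Same-numbered arrays of the lines at 33 °C deviated together, and with replicate number as a block the Prim2 call ended (adjusted p = 0.0659). It ended too without heat-shocked Q111 replicate 1, 33 °C Q111 replicate 1, 2 or 3, heat-shocked Q7 replicate 1, 2 or 3 or 33 °C Q7 replicate 1 or 2 (adjusted p between 0.0506 and 0.154), which left 0 members called higher. Another probe set of Prim2 gave -0.11 (adjusted p = 0.914). In a fit of the 33 °C arrays alone with that block, Prim2 stayed called and Pold2 was called lower. Rpa1 stood at 13.14, 13.27 and 13.25 on the Q111 arrays, against 12.91, 12.79 and 12.79 on the Q7 arrays, and did not pass (adjusted p = 0.0647).

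After heat shock the lines were compared in the same way. Cdc45, Pole, Pole2, Pold1 and Lig1, 5 members (11.9%), were called lower in heat-shocked Q111 cells, against 15.5% of all genes and 20.7% of those in the members' range of levels. Ccne1 alone was called higher (2.38%), against 6.58% of all genes. The median log2 difference was -0.24 over the members, -0.00 over all genes and -0.17 over genes in the members' range of levels. Centred on the median gene, 6 members were called higher and 3 lower, and the median of the members was 0.13. Without heat-shocked Q7 replicate 1 there were 3 lower calls, and without heat-shocked Q7 replicate 3 there were 2. Of the 8 polymerase and primase genes on the list 3 were called lower, Pole, Pole2 and Pold1. Whether that share differs from the share of all genes was not tested.

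Pole2 differed most, with the levels given above. It was lower in heat-shocked Q111 cells by a log2 difference of -1.36 (SE 0.16, adjusted p = 0.000138), 2.56-fold. Cdc45 was lower by -0.83 (SE 0.14, adjusted p = 0.00167), and both calls held when arrays were centred on the median gene (adjusted p = 0.00141 for Pole2 and 0.0365 for Cdc45). Pole was lower by -1.01 (SE 0.26, adjusted p = 0.0168), and its call ended without heat-shocked Q111 replicate 2 or heat-shocked Q7 replicate 1 or 3 (adjusted p between 0.0515 and 0.0701). Pold1 had 10.53, 10.76 and 10.61 in heat-shocked Q111 cells, against 11.19, 11.18 and 11.55 in heat-shocked Q7 cells. Its difference of -0.68 (SE 0.18, adjusted p = 0.0222) lost its call with arrays centred on the median gene and without heat-shocked Q111 replicate 1 or heat-shocked Q7 replicate 3 (adjusted p between 0.0637 and 0.102). Lig1 was lower by -0.68 (SE 0.21, adjusted p = 0.0428), a call that 16 of 25 alternatives ended, among them leaving out heat-shocked Q111 replicate 3, 33 °C Q111 replicate 3, heat-shocked Q7 replicate 1, 2 or 3 or 33 °C Q7 replicate 2 or 3 (adjusted p between 0.0549 and 0.135). Ccne1 was higher in heat-shocked Q111 cells by 0.79 (SE 0.25, adjusted p = 0.0406), and 10 of 25 alternatives ended that call, among them leaving out heat-shocked Q111 replicate 1 or 2, 33 °C Q111 replicate 3, heat-shocked Q7 replicate 1, 2 or 3 or 33 °C Q7 replicate 1, 2 or 3 (adjusted p between 0.0537 and 0.113). Rfc1 (-0.46, adjusted p = 0.0865), Pold2 (-0.79, adjusted p = 0.061) and Prim1 (-0.32, adjusted p = 0.0749) did not pass.

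**Figure D3:**
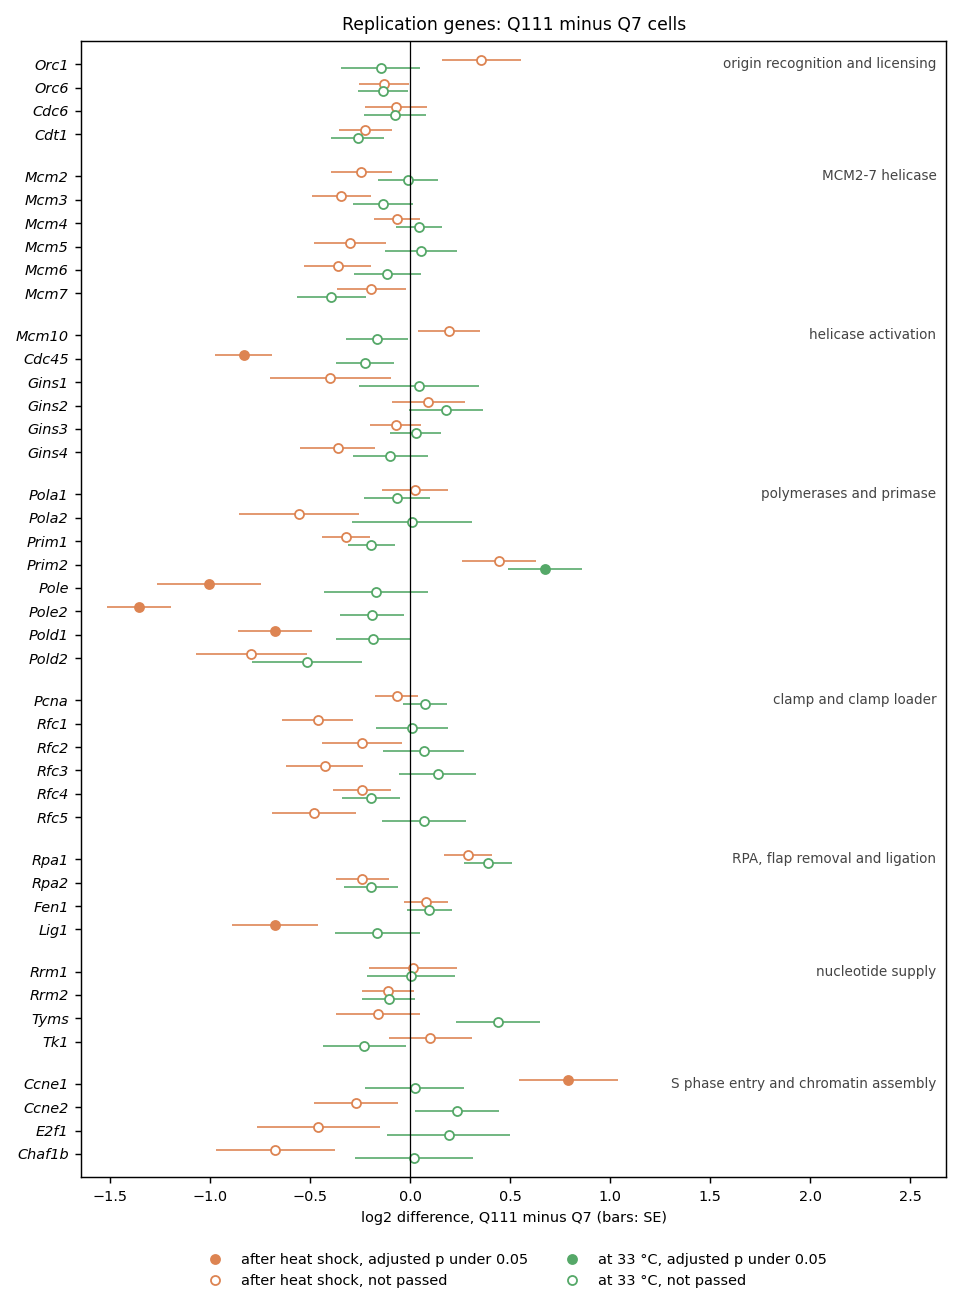
Log2 difference of each of the 42 members between Q111 and Q7 cells, by role, after heat shock (orange) and at 33 °C (green). Points are fitted differences over 3 arrays a group, bars are standard errors, and filled points passed an adjusted p of 0.05. At 33 °C the points lie between -0.51 and 0.67, and after heat shock Pole2 is lowest at -1.36 and Ccne1 highest at 0.79.

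The effects of heat shock in the lines were also compared directly, as the effect in Q111 cells minus that in Q7 cells. Pole2 alone was called lower (2.38%), against 4.51% of all genes, and no member was called higher by limma, against 1.21% of all genes. At an unadjusted p under 0.05 there were 1 higher and 3 lower. The median difference of effects was -0.22 over the members, -0.01 over all genes and -0.14 over genes in the members' range of levels. The difference of effects was negative for 32 of the 42 members, and the share of all genes with a negative difference was not determined. It changed sign for 18 members when arrays were centred on the median gene. Without the third heat-shocked Q111 array and the second Q111 array at 33 °C, the median of the members was -0.12. With arrays centred on the median gene, which added 0.37 to every difference of effects, it was 0.16.

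Most members had more than 1 probe set, and those of called genes mostly had the same sign. There were 50 further probe sets for 32 members, 41 of them above background range. For genes called in Q111 cells 17 of 18 such probe sets had the same sign and 13 passed the test on their own. For genes called in Q7 cells 12 of 14 had the same sign and 9 passed, and the exceptions were in Mcm10 and in Rrm1, whose dimmest probe set had 0.54 (adjusted p = 0.0612). Of genes not called, 4 in each line had a further probe set that passed. These were Cdc45, Fen1, Mcm5 and Rrm2 in Q111 cells, and E2f1, Prim1, Rfc2 and Rrm2 in Q7 cells. Of Fen1 such a probe set gave 0.50 (adjusted p = 0.0161) in Q111 cells. In Rrm2 one gave 0.68 (adjusted p = 0.0341) in Q111 cells and 0.88 (adjusted p = 0.0141) in Q7 cells. In Mcm10 a dimmer probe set went the other way, with -0.68 (adjusted p = 0.131) in Q111 cells and -1.59 (adjusted p = 0.00536) in Q7 cells. Another bright probe set of Mcm10 gave 1.26 (adjusted p = 0.000115) in Q111 cells and 0.88 (adjusted p = 0.00163) in Q7 cells, like the one used. Averaged over all its probe sets, Mcm10 lost its Q7 call (adjusted p = 0.881). Cdc45 had a dimmer probe set that was called higher in both lines, 1.59 (adjusted p = 0.000332) in Q111 cells and 2.61 (adjusted p = 2.57e-05) in Q7 cells. In Mcm5 a dim probe set gave -1.70 (adjusted p = 0.00949) in Q111 cells, where the brighter ones did not pass. The other probe set of Ccne1 fell in both lines, by -1.37 (adjusted p = 0.00236) in Q111 cells and -2.49 (adjusted p = 8.99e-05) in Q7 cells. The dimmest probe set of Rfc1 fell in Q111 cells, by -1.25 (adjusted p = 0.000224), and had -0.00 (adjusted p = 0.989) in Q7 cells. For it the difference of effects was -1.24 (adjusted p = 0.0218), which the used probe set of Rfc1 did not show (adjusted p = 0.311).

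**Figure D4:**
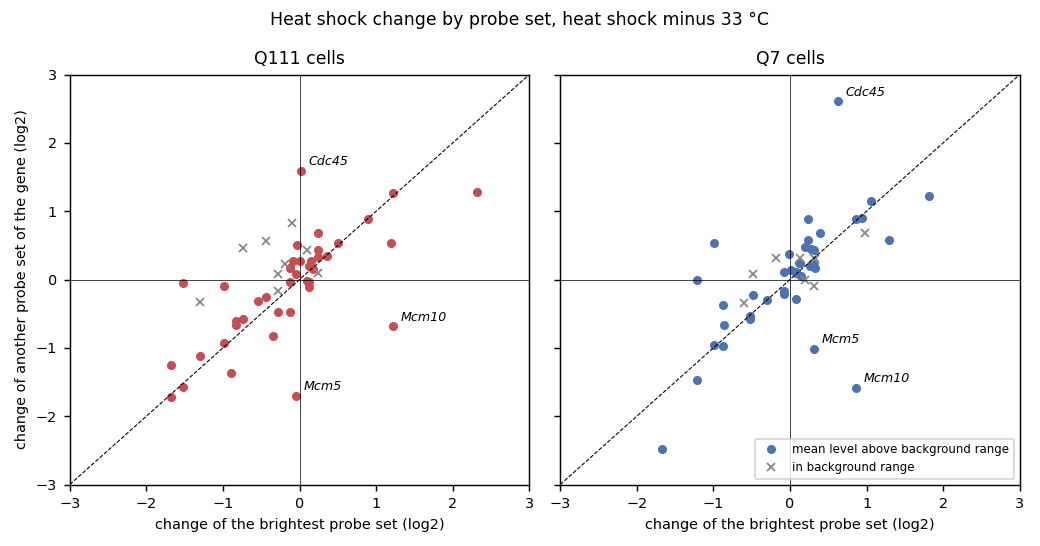
Log2 difference after heat shock of every further probe set of the members (vertical axis) against that of the brightest probe set of the same gene (horizontal axis), in Q111 cells (left) and Q7 cells (right). Circles have a mean level above background range, crosses do not, and the dashed line marks equal values. Most circles lie near the line. For Mcm10, Mcm5 and Cdc45 a label marks the circle of that gene farthest from the line. Other distant circles, such as that of Rrm1 in Q7 cells, are not labelled.

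Across the 42 members the change after heat shock in Q111 cells and that in Q7 cells had a Pearson correlation of 0.92. The points share arrays within a line but no array between lines, and genes are not independent replicates. The Spearman correlation of genomic span with the change was -0.30 in Q111 cells and -0.08 in Q7 cells over the 42 members, and that of mean level with the change was 0.27 in Q111 cells and 0.05 in Q7 cells. Over 7585 genes in the same range of levels that of span was -0.26 in Q111 cells and -0.21 in Q7 cells.

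Other factors of the replication fork were called in both directions after heat shock. Of 38 measured on a list of 39, 9 were called higher (23.7%, against 20.0% of all genes) and 15 lower (39.5%, against 28.2%) in Q111 cells. In Q7 cells 12 were higher (31.6%, against 12.3% of all genes) and 7 lower (18.4%, against 18.1%). Centred on the median gene, 21 were higher and 6 lower in each line. In Q111 cells the largest changes were falls of Chtf18 (clamp loading), Mcm9 (a relative of the MCM helicase) and Timeless (fork protection), with log2 differences of -1.84, -1.79 and -1.72. In Q7 cells Pole4, a small subunit of polymerase epsilon, rose by 1.91 (adjusted p = 2.1e-06), Rpa3 rose by 1.38 (adjusted p = 0.000488) and Mcmbp had -1.38 (adjusted p = 0.000791). At 33 °C 2 were higher in Q111 cells, Pole4 (0.54) and Cdc7 (0.51), and Pole3 (-0.89) was lower. After heat shock 10 were lower in Q111 cells and none was higher by limma (2 at an unadjusted p under 0.05), led by Ticrr (-1.19), Dna2 (-1.12) and Recql4 (-1.03), whereas 5 were higher and 5 lower centred on the median gene. The lower calls were 26.3% of the list, against 15.5% of all genes. The effect of heat shock was lower in Q111 cells for 4 of them (10.5%, against 4.51% of all genes, and 0 centred on the median gene), among them Dna2 (-0.99 (adjusted p = 0.0256)), Pold3 (-0.96 (adjusted p = 0.0272)) and Donson (-0.90 (adjusted p = 0.0264)).

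Regulators of the G1 to S step, 31 genes and all measured, had 6 higher calls (19.4%, against 20.0% of all genes) and 12 lower calls (38.7%, against 28.2%) in Q111 cells after heat shock. In Q7 cells 7 were higher (22.6%, against 12.3% of all genes) and 5 lower (16.1%, against 18.1%). Centred on the median gene, 16 were higher and 5 lower in Q111 cells, and 13 higher and 2 lower in Q7 cells. In Q111 cells Cdk6 fell by -2.33 (adjusted p = 2.14e-05), E2f3 by -2.09 (adjusted p = 7.46e-06) and E2f7 by -1.76 (adjusted p = 0.000178). In Q7 cells the cyclin-dependent kinase inhibitor Cdkn2c rose by 1.94 (adjusted p = 6.08e-05), Cdk6 fell by -1.67 (adjusted p = 0.000261) and Rb1, the retinoblastoma gene, rose by 1.27 (adjusted p = 0.00042). At 33 °C 7 were lower (22.6%, against 5.68% of all genes) and 3 higher (9.68%, against 5.11%) in Q111 cells. Ccnd1 and Ccnd2, the D-type cyclins, had -2.02 and -1.58, and the inhibitor Cdkn1c had 1.66. Cdkn1c was dim, with a mean level of 6.25, where background reached 5.14. After heat shock 15 were lower in Q111 cells (48.4%, against 15.5% of all genes) and none was higher by limma (0 at an unadjusted p under 0.05), while centred on the median gene 3 were higher and 8 lower. The largest were Rb1 at -2.05, Cdk6 at -1.69 and Ccnd1 at -1.45. The effect of heat shock differed for 5, with 3 lower (9.68%, against 4.51% of all genes) and 2 higher (6.45%, against 1.21%) in Q111 cells, and most for Rb1 (-2.23 (adjusted p = 0.00209)), E2f7 (-1.64 (adjusted p = 0.0202)) and E2f3 (-1.48 (adjusted p = 0.00696)).

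Genes of the replication checkpoint and of repair, 22 measured of 25, had 5 higher calls (22.7%, against 20.0% of all genes) and 11 lower calls (50%, against 28.2%) in Q111 cells after heat shock. In Q7 cells 7 were higher (31.8%, against 12.3% of all genes) and 6 lower (27.3%, against 18.1%). With median-gene centring 11 were higher and 6 lower in Q111 cells, and 10 higher and 3 lower in Q7 cells. In Q111 cells Brca2 fell by -2.47 (adjusted p = 2.15e-06), the checkpoint kinase Atr by -2.04 (adjusted p = 4.49e-05) and Rad1, of the checkpoint clamp, by -1.95 (adjusted p = 0.000236). In Q7 cells Brca2 had -2.17, Rad18 -1.95 and Atr -1.43. At 33 °C no gene of this list was called by limma in either direction, and at an unadjusted p under 0.05 there were 1 higher and 3 lower. After heat shock 9 were lower in Q111 cells (40.9%, against 15.5% of all genes, and 9 as well centred on the median gene) and none was higher by limma (1 at an unadjusted p under 0.05), led by Rad1 (-2.35), Bard1 (-1.79) and Atrip (-1.50). Bard1 and Atrip were dim, with mean levels of 6.47 and 6.25, where background reached 5.14. The effect of heat shock was lower in Q111 cells for 3 genes (13.6%, against 4.51% of all genes, and 1 centred on the median gene), Rad1 (-2.17), Msh6 (-0.98) and Exo1 (-0.95).

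Of mitotic genes, 28 measured of 29, 10 were called lower (35.7%, against 28.2% of all genes) and 1 higher (3.57%, against 20.0%) in Q111 cells after heat shock. In Q7 cells 14 were called lower (50%, against 18.1% of all genes) and none higher by limma (1 at an unadjusted p under 0.05). With median-gene centring 13 were higher and 4 lower in Q111 cells, and 2 higher and 6 lower in Q7 cells. Mki67, a marker of cycling cells, fell by -1.60 (adjusted p = 0.000459) in Q111 cells and -1.72 (adjusted p = 0.000465) in Q7 cells. Cenpe and Kif23 followed in Q111 cells with -1.46 and -1.26, and Plk1 and Ccnb2 in Q7 cells with -1.57 and -1.41. At 33 °C 1 mitotic gene was called higher in Q111 cells by limma (3.57%, against 5.11% of all genes) and 2 lower (7.14%, against 5.68%). The higher one was Ccnb2 (1.01, adjusted p = 0.0104), and the lower ones were Kif23 (-0.63) and Anln (-0.48). After heat shock 3 were higher in Q111 cells (10.7%, against 6.58% of all genes) and 1 lower (3.57%, against 15.5%). The higher ones were Ccnb2 (1.97, adjusted p = 9.89e-05), Aurka (0.72) and Mad2l1 (0.69). No mitotic gene had a heat shock effect that passed the test of a difference between the lines in limma, and at an unadjusted p under 0.05 there were 2 higher and 0 lower.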

How the data were processed

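The submitters deposited log2 levels per probe set of 12 arrays, made with RMA per the submitters' processing notes. RMA adjusts background, brings arrays to shared quantiles and joins probes into 1 value a set, and its version is not given in the sources used here. Scanner files were not used. Of 45101 probe sets 64 were controls, 34945 named 1 gene, 932 several, and 9160 are unnamed here; 34741 were matched by gene identifier. Genes were represented by their brightest probe set. limma 3.58.1 (R 4.3.3) was run on all 12 arrays with a mean for each of 4 groups (residual degrees of freedom 8, prior 3.23) and tested 5 contrasts, two-sided, with Benjamini-Hochberg adjustment over 18193 genes, with a call at an adjusted p below 0.05. The script was tested on simulated data. Alternatives changed the probe sets, the filter, the scaling, the variance model, array weights, the arrays fitted, a replicate block, an RNA quality covariate and the threshold, and left out each array. Another 3 were added after seeing the data: both arrays that stood apart left out, centring on genes in the members' range of levels, and the block on 33 °C arrays alone. Same-numbered arrays deviated together at 33 °C (r = 0.52, 0.40 and 0.58), and numbers were taken to pair arrays there. For heat shock in Q111 cells r was 0.10, 0.18 and 0.24, the lowest (0.0968) under the limit of 0.1 for every pair, and in the other comparisons r was below 0 for some pairs. The members and gene lists were chosen with earlier results of these data known. All members were named, and of each other list up to 3 called genes with the largest change. Orc2, Orc3, Orc4 and Orc5 were named as well, beside the origin genes. Background range was set by 27 probe sets for bacterial genes (median 2.85, highest 5.14). Replicate arrays shared 10 to 60 identical probe set values, so none was counted as a copy. The number of arrays limits precision.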

Additional observations from a re-analysis of the deposited data

Results flagged for a closer look

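Pole2 was marked because its response to heat shock differed between the lines. The effect in Q111 cells minus that in Q7 cells was -1.17 (SE 0.23, adjusted p = 0.0152 in limma's test of the difference itself). In heat-shocked Q111 cells 3 of 3 arrays were below all 3 heat-shocked Q7 arrays, while at 33 °C the lines overlapped. Over 25 alternatives the adjusted p of this difference lay between 0.00238 and 0.0700. A dimmer probe set of Pole2, in background range, gave a difference of -0.45 (adjusted p = 0.414).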

How the results depend on the processing

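Over 26 settings beside the main one, each member's change kept its direction and its side of the threshold in 4772 of 5292 cases, lost its call in 161, and otherwise newly passed or turned. Many of these cases could not change direction. The stricter threshold, brighter genes alone, the variance trend, the groups compared alone and the replicate block leave each log2 difference as it was. So does testing every probe set separately, or leaving out an array of a group not compared. The count of kept directions is therefore partly fixed in advance. A member's change turned its direction in 248 cases, and in 241 of these it was called neither in the main setting nor in the other, as with Tyms and Pola2 in Q111 cells and Mcm3 in Q7 cells after heat shock. Where no value bears on it the cause was not tested. The other 7 turned with a call on one side or the other, in Q111 cells after heat shock, with arrays centred on the median gene, where Mcm2 had 0.19, Mcm3 0.60, Mcm5 0.69, Pola1 0.63, Pole2 0.54, Rpa1 0.64 and Fen1 0.69. That centring adds 1 value to every gene of a comparison, and it gave 25 higher and 4 lower calls for heat shock in Q111 cells and 20 higher calls in Q7 cells. It gave 6 higher and 3 lower calls for the lines after heat shock, where it adds 0.38 and takes the share of all calls that are higher to 72.6%, against 29.8%. For the difference of effects it gave 0 lower calls, with that share at 62.1%, against 21.2%. Centring on genes in the members' range of levels gave 14 higher calls in Q111 cells, and 3 higher and 3 lower after heat shock, where 47.4% of all calls were higher (35.9% for the difference of effects). With the actin covariate there were 8 lower calls in Q111 cells, 1 higher and 1 lower in Q7 cells, 0 higher at 33 °C, 3 lower after heat shock and 0 lower for the difference of effects. Array weights gave 12 lower calls in Q7 cells, 2 higher at 33 °C, and 3 higher and 9 lower after heat shock. The groups compared alone gave 11 lower calls in Q7 cells and 3 after heat shock, and leaving out both arrays that stood apart gave 3 lower after heat shock. The mean of all probe sets gave 0 higher calls at 33 °C, and 2 higher and 8 lower after heat shock; every probe set tested separately gave 0 higher at 33 °C. Brighter genes alone, a further quantile normalization and a variance trend each gave 2 higher at 33 °C, and the trend gave 2 higher after heat shock. At an adjusted p under 0.01 there were 0 higher at 33 °C, 0 higher and 2 lower after heat shock, and 0 lower for the difference of effects.

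With replicate number as a block, 0 members were called higher at 33 °C, and in the fit of the 33 °C arrays alone with that block 1 was called higher and 1 lower. In the other comparisons, where the numbers were not taken to pair arrays, the block gave 7 higher and 14 lower calls in Q111 cells, 10 and 7 in Q7 cells, and 1 and 4 after heat shock. Leaving out each array in turn gave 6 to 9 higher and 13 to 15 lower calls in Q111 cells, and 9 to 11 higher and 6 to 11 lower in Q7 cells. It gave 0 to 1 higher and 0 lower at 33 °C, 0 to 1 higher and 2 to 6 lower after heat shock, and 0 higher and 0 to 1 lower for the difference of effects. Scanner files were not used, so signal over local background was not assessed, and all members were above background range on all arrays.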
